A study of Mus musculus with 9 samples.

Results

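ATF4 is the transcription factor through which the integrated stress response reaches the genome, and the 10 genes described here are Atf4 and 9 genes tied to it. Atf5, Atf3, Ddit3 and Cebpb encode related transcription factors, Asns, Chac1 and Trib3 are known targets, and Sesn2 and Ddit4 encode brakes on the growth kinase complex mTORC1. They were chosen by their symbols, each matched to 1 Ensembl identifier of the count table, and are 10 of its 49671 genes. All 10 passed the filter on low counts and were among the 18374 genes tested.

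The cells were splenic CD3+ T cells, enriched on columns, of female F1 mus x cast mice whose age is not given in the sources used here. The inhibitor group was held in culture for 48 hours on anti-CD3 coated at 1 µg/ml, with anti-CD28 in solution at 10 µg/ml and with IMD-0354 at 2.5 µM, a compound that blocks IKK-beta, a kinase needed to activate NF-kB. The stimulated group had the same culture without IMD-0354, and the unstimulated group was lysed in TRIzol without culture (n = 3 libraries in each of the 3 groups). In all groups alike the mothers were C57BL/6 females heterozygous for a deletion of Xist and the fathers M. m. castaneus. X inactivation would be skewed in daughters that carry the deletion, and was not examined here. No vehicle is named for the stimulated cultures, and no group was cultured without stimulation, so that stimulation and culture in medium with added nonessential amino acids (1%) and beta-mercaptoethanol (0.1%) cannot be told apart.

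In the integrated stress response, kinases that sense missing amino acids, unfolded proteins, viral RNA or lack of heme phosphorylate the translation factor eIF2 alpha. General protein synthesis then slows, while the mRNA of Atf4 is translated more, and ATF4 switches on genes that make, import and charge amino acids. Activated T cells, which grow fast and need amino acids, are known to use this programme. Since ATF4 is controlled largely in translation, an RNA level of Atf4 is not a measure of its protein.

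Total counts were between 34009988 and 56221174 per library. A CPM value here is a count over its TMM-scaled library size. The T cell markers were present in all groups, with sums over 10 genes of 2630 to 2788 CPM in the inhibitor libraries, 3039 to 3136 CPM in the stimulated libraries and 2085 to 3172 CPM in the unstimulated libraries. The sums over 14 markers of myeloid and dendritic cells were 91.4 to 121 CPM in inhibitor, 40.0 to 42.7 CPM in stimulated and 1438 to 3639 CPM in unstimulated libraries, with no marker at 0 in a whole group. Those over 10 B cell markers were 151.0 to 151.8 CPM with the inhibitor, 72.4 to 82.0 CPM with stimulation and 556 to 1498 CPM in unstimulated libraries. Of the B cell sums Ighm alone gave 119 to 123 CPM with the inhibitor and 50.6 to 59.3 CPM with stimulation. Of the myeloid sums Ctss gave 51.9 to 54.1 CPM with the inhibitor and 20.8 to 25.4 CPM with stimulation. With the inhibitor against stimulation 5 of the 10 B cell and 7 of the 14 myeloid markers rose and 0 fell. The others were not called, and among all genes 21.7% rose and 22.8% fell. Over 8 NK cell markers the sums were 41.1 to 55.1 CPM with the inhibitor, 65.8 to 71.2 CPM with stimulation and 385 to 427 CPM in unstimulated libraries. Over 10 erythroid and platelet markers, 1 of them at 0 in both cultured groups, they were 4.86 to 12.8 CPM with the inhibitor, 4.41 to 7.14 CPM with stimulation and 42.3 to 616 CPM in unstimulated libraries. Unstimulated library 2 held the most myeloid and B cell RNA and 378 CPM of the proliferation gene Mki67, against 97.2 and 46.5 CPM in unstimulated libraries 1 and 3. In libraries 1 to 3 of the cultured groups Mki67 was at 87.5, 79.6 and 185 CPM with the inhibitor and 887, 899 and 834 CPM with stimulation. The part of proliferation in the differences between groups described below was not tested. Genes with any count numbered 30106 in inhibitor library 1 and 20547 to 23223 elsewhere. In such bulk samples fewer cells of a type and less RNA per cell cannot be told apart.

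Against the unstimulated cells, 9 of the 10 genes rose in the stimulated cells and Cebpb fell. Over all genes tested 32.0% rose and 34.0% fell. The median log2 fold change of the 10 was 2.35, beside -0.05 over all genes. The increases were largest for Asns, an enzyme that makes asparagine, and Chac1, an enzyme that breaks down glutathione, both 18.8-fold. With the inhibitor against stimulation alone the genes parted: Atf4, Atf3, Ddit4, Trib3 and Asns fell, Atf5 rose, and Ddit3, Chac1, Sesn2 and Cebpb were not called. Among all genes 22.8% fell and 21.7% rose in that comparison. The calls of Trib3 and Asns were the weakest of the 5 and were lost under several other settings, given with their values below.

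**Figure D1:**
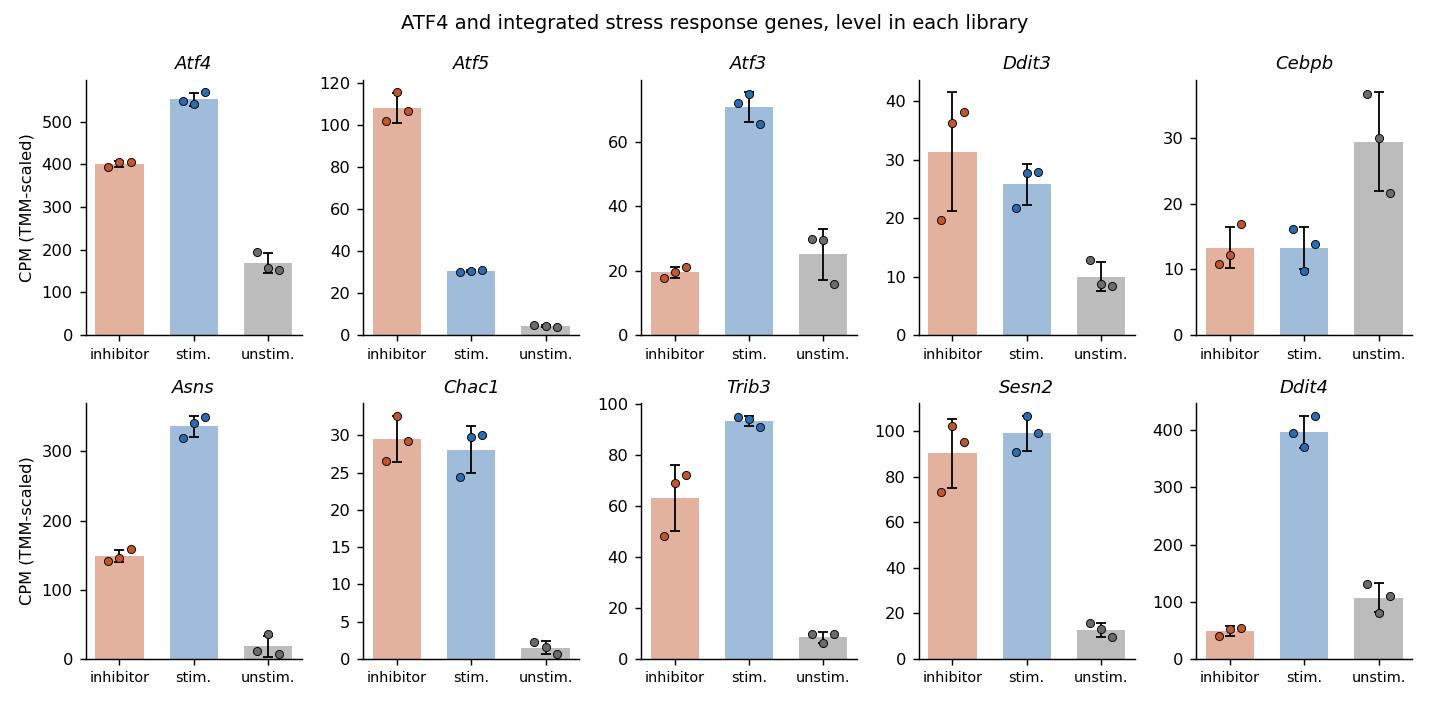
Level of each of the 10 genes in CPM (TMM-scaled) in inhibitor, stimulated and unstimulated libraries, with points for libraries, bars for means and error bars for the SD (n = 3). Atf5 is highest with the inhibitor, Cebpb in the unstimulated cells, and Ddit4 is lowest with the inhibitor.

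**Figure D2:**
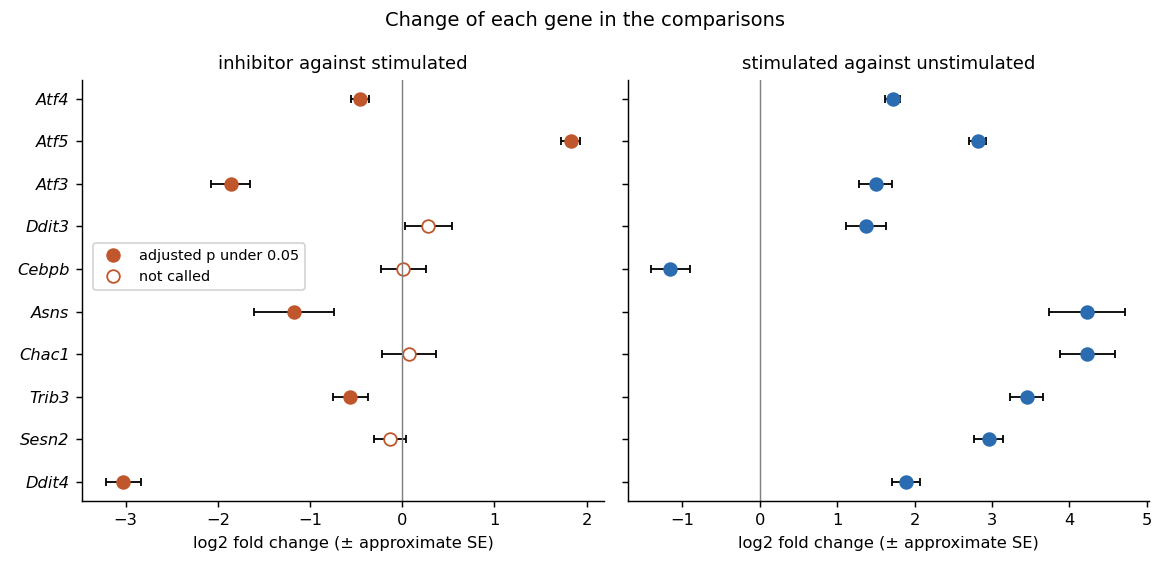
Log2 fold change with approximate SE of each gene in inhibitor against stimulated libraries (left) and in stimulated against unstimulated libraries (right). Filled points passed an adjusted p of 0.05 in edgeR, and on the left Atf5 (1.83) and Ddit4 (-3.03) lie at the ends.

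Atf4 (ENSMUSG00000042406, chromosome 15, 80255184 to 80257541 on mm10, as for all positions here) was the most abundant of the 10 per kb of exon in every group. Its level was 393, 407 and 405 CPM in inhibitor libraries 1 to 3, 548, 541 and 569.9 CPM in the stimulated libraries and 195, 158 and 152 CPM in the unstimulated libraries. No 2 groups overlapped, and the inhibitor libraries lay between the others. Stimulated cells had 3.29-fold the level of unstimulated cells (log2 fold change 1.72 ± 0.10 SE, edgeR adjusted p = 2.97e-07). With the inhibitor Atf4 fell by 0.46 ± 0.10 on the log2 scale against stimulation alone (adjusted p = 0.00308), and it remained 2.39-fold above the unstimulated cells (adjusted p = 3.68e-06). Under upper-quartile scaling the log2 change with the inhibitor against stimulation was -0.33 (adjusted p = 0.0268).

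Atf5 (ENSMUSG00000038539, chromosome 7, 44812256 to 44816658) encodes a close relative of ATF4 that is also controlled by upstream reading frames in its mRNA and is known from the stress response of mitochondria. It had 102, 116 and 107 CPM with the inhibitor, 30.1, 30.4 and 31.1 CPM with stimulation alone and 4.94, 4.13 and 3.95 CPM in unstimulated cells. The inhibitor libraries were the highest and the unstimulated ones the lowest, with no overlap and a narrow range in each group. Stimulation came with a 7.04-fold level (log2 2.81 ± 0.11, adjusted p = 3.00e-08), and the inhibitor with a further 3.55-fold level over stimulation alone (log2 1.83 ± 0.10, adjusted p = 1.24e-06). Inhibitor cells thus had 24.9-fold the level of unstimulated cells (adjusted p = 8.68e-09), the largest change of any of the 10 in that comparison. Atf5 shares 82 bases of exon with Nup62 and Il4i1 on the opposite strand, both counted in the same table. Nup62 averaged 102 CPM with the inhibitor, 182 CPM with stimulation and 42.6 CPM in unstimulated cells, and Il4i1 averaged 16.7 CPM with the inhibitor, 11.3 CPM with stimulation and 11.4 CPM in unstimulated cells. The mean of Nup62 was thus highest with stimulation alone and that of Il4i1 with the inhibitor. The strand setting of the counting is not given in the sources used here. The part of reads from either gene in the level of Atf5 was not tested.

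Atf3 (ENSMUSG00000026628, chromosome 1, 191170296 to 191218039), a factor of the same family that is quickly induced by many stresses, was at 17.8, 19.5 and 21.1 CPM in the inhibitor libraries, 71.9, 74.7 and 65.5 CPM in the stimulated libraries and 29.7, 29.6 and 15.9 CPM in the unstimulated libraries. All stimulated libraries lay above all others, while the inhibitor and unstimulated libraries overlapped. Atf3 rose with stimulation (log2 1.496 ± 0.21, adjusted p = 1.26e-04) and fell with the inhibitor against stimulation (log2 -1.86 ± 0.21, adjusted p = 9.02e-05). Between inhibitor and unstimulated cells the log2 difference of -0.36 ± 0.21 was not called (adjusted p = 0.168). Without unstimulated library 3, the lowest of its group, it was -0.61 and passed (adjusted p = 0.00165).

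Ddit3 (ENSMUSG00000025408, chromosome 10, 127290774 to 127296288) encodes CHOP, a factor that ATF4 induces and that promotes cell death when stress lasts. Its level was 19.6, 36.2 and 38.2 CPM with the inhibitor, 21.7, 27.8 and 27.9 CPM with stimulation and 12.9, 8.72 and 8.37 CPM in unstimulated cells. Both cultured groups lay above the unstimulated libraries, and they overlapped each other, with inhibitor library 1 lowest among the cultured cells. The rise with stimulation was 1.37 ± 0.26 on the log2 scale (adjusted p = 9.73e-04), and the difference between inhibitor and stimulation was 0.28 ± 0.25 (adjusted p = 0.393). Without inhibitor library 1 that difference was 0.53 and still not called (adjusted p = 0.0588). Ddit3 shares 68 bases of exon with Mars, a tRNA synthetase gene on the opposite strand, which was at 167 ± 12.8 CPM with the inhibitor, 206 ± 19.4 CPM with stimulation and 44.5 ± 3.92 CPM in unstimulated cells. It also shares 13 bases with Gm4189 on the opposite strand, at 1.19 ± 0.155 CPM with the inhibitor, 0.632 ± 0.236 CPM with stimulation and 1.49 ± 0.382 CPM in unstimulated cells, and 105 bases with another gene ID annotated as Ddit3 on the same strand, not analysed here.

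Cebpb (ENSMUSG00000056501, chromosome 2, 167688915 to 167690418), a C/EBP factor that can pair with ATF4 and is abundant in myeloid cells, was the one gene of the 10 that fell with stimulation. It had 10.9, 12.2 and 16.9 CPM with the inhibitor, 16.1, 9.79 and 13.8 CPM with stimulation and 36.8, 30.0 and 21.7 CPM in unstimulated cells. The unstimulated libraries lay above all others, and the cultured groups overlapped. The change with stimulation was -1.16 ± 0.25 (log2, adjusted p = 0.00208), and the difference with the inhibitor against stimulation was not called (log2 0.01 ± 0.25, adjusted p = 0.974). Its relatives Cebpa and Cebpd, also known from myeloid cells, were near 0 in cultured cells. Cebpa had 0.211, 0.0432 and 0.0379 CPM in stimulated libraries, against 17.2, 20.1 and 7.22 CPM in unstimulated libraries, and Cebpd had 0.592, 0.778 and 0.607 CPM, stimulated, against 15.6, 19.1 and 6.28 CPM, unstimulated. All 14 myeloid and dendritic markers fell in the same comparison, with the summed levels given above, and their part in the level of Cebpb was not tested. Within the unstimulated group the sum was 2380, 3639 and 1438 CPM in libraries 1 to 3, so that Cebpb was highest in library 1, the sum in library 2 and both lowest in library 3. Of its 1504 exonic bases 312 overlap Tmem189 on the opposite strand, which had 32.9 ± 0.284 CPM with the inhibitor, 41.2 ± 1.08 CPM with stimulation and 31.2 ± 2.95 CPM in unstimulated cells.

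Asns (ENSMUSG00000029752, chromosome 6, 7675169 to 7693254) encodes asparagine synthetase, the textbook target of ATF4 under amino acid shortage. Its level was 142, 146 and 159 CPM with the inhibitor, 319, 341 and 349 CPM with stimulation alone and 11.3, 35.2 and 7.32 CPM in unstimulated cells. The 3 groups did not overlap, and unstimulated library 2 was well above the other 2 of its group. That library also had the most Mki67 and myeloid RNA of its group, and their part in its level of Asns was not tested. Stimulated cells had 18.8-fold the unstimulated level (log2 4.23 ± 0.49, adjusted p = 3.40e-05). Without unstimulated library 2 the log2 difference was 5.18. With the inhibitor against stimulation alone Asns fell (log2 -1.18 ± 0.43) and passed narrowly (adjusted p = 0.0496). The shared fit carries the spread of the unstimulated libraries into this test. In a fit of only the 2 groups compared the adjusted p was 5.97e-06 (log2 -1.16), and without unstimulated library 2 it was 6.32e-05 (log2 -1.18). The call was lost with DESeq2 (adjusted p = 0.0765) and without any 1 of the inhibitor or stimulated libraries (adjusted p up to 0.117), while the change itself stayed between -1.23 and -1.05.

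Chac1 (ENSMUSG00000027313, chromosome 2, 119351229 to 119354381) had 26.6, 32.6 and 29.3 CPM with the inhibitor, 24.4, 29.7 and 30.0 CPM with stimulation alone and 2.30, 1.58 and 0.649 CPM in unstimulated cells, the last from 92, 68 and 32 counts. The cultured groups overlapped each other and lay far above the unstimulated libraries. The rise with stimulation was 4.23 ± 0.35 (log2, adjusted p = 3.29e-06), and between inhibitor and stimulation the difference was 0.07 ± 0.29 (adjusted p = 0.863).

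Trib3 (ENSMUSG00000032715, chromosome 2, 152337422 to 152344032) encodes a pseudokinase that ATF4 induces and that in turn restrains ATF4. Its level was 48.3, 69.0 and 72.1 CPM with the inhibitor, 95.1, 94.0 and 91.1 CPM with stimulation and 9.66, 6.06 and 9.91 CPM in unstimulated cells. The groups did not overlap, with the inhibitor libraries in the middle and inhibitor library 1 lowest of them. Trib3 rose with stimulation (log2 3.45 ± 0.21, adjusted p = 4.54e-07) and fell with the inhibitor (log2 -0.56 ± 0.19, adjusted p = 0.0345). The call with the inhibitor was lost without inhibitor library 1 (log2 -0.41, adjusted p = 0.105), without inhibitor library 2 (adjusted p = 0.0566) and without any 1 of the stimulated libraries (adjusted p of 0.0747 to 0.0849).

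Sesn2 (ENSMUSG00000028893, chromosome 4, 132492032 to 132510501), the gene of the leucine sensor Sestrin 2, which holds mTORC1 back through the GATOR complexes, was at 73.3, 102 and 95.2 CPM with the inhibitor, 91.0, 107 and 99.4 CPM with stimulation and 15.7, 13.0 and 9.61 CPM in unstimulated cells. The cultured groups overlapped and stood well above the unstimulated libraries. It rose with stimulation (log2 2.95 ± 0.19, adjusted p = 5.79e-07), and the difference with the inhibitor was -0.13 ± 0.17 (adjusted p = 0.566).

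Ddit4 (ENSMUSG00000020108, chromosome 10, 59949669 to 59951834) encodes REDD1, which holds mTORC1 back through the TSC complex and is known to respond to hypoxia and glucocorticoids as well as to ATF4. It had 39.6, 52.0 and 54.6 CPM with the inhibitor, 395, 370.4 and 426 CPM with stimulation and 131, 79.9 and 110.4 CPM in unstimulated cells. The groups did not overlap, and the inhibitor libraries were the lowest, below the unstimulated ones. Stimulated cells had 3.70-fold the unstimulated level (log2 1.89 ± 0.18, adjusted p = 8.15e-06). Inhibitor cells were lower than stimulated cells (log2 -3.03 ± 0.19, adjusted p = 2.30e-06) and lower than unstimulated cells (log2 -1.14 ± 0.18, adjusted p = 3.83e-04).

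Inhibitor cells against unstimulated cells had 7 of the 10 genes higher, beside 26.3% of all genes, and Ddit4 and Cebpb lower, beside 26.1%. Atf3 was not called. The median of the 10 was 2.24 on the log2 scale, beside -0.00 over all genes. Besides Atf4 and Atf5, the genes that were higher were Chac1 (4.30 ± 0.35), Asns (3.05 ± 0.47), Trib3 (2.89 ± 0.21) and Sesn2 (2.82 ± 0.19), and Ddit3 was higher by 1.65 ± 0.26 (log2, adjusted p between 1.41e-06 and 4.42e-04). The difference of Asns was 4.004 without unstimulated library 2 and 2.68 without library 3, against 2.69 and 3.01 for Trib3, so their order depends on single libraries. Cebpb was lower (log2 -1.14 ± 0.25, adjusted p = 0.00308). The comparison shares its libraries with the other comparisons and adds no independent evidence to them.

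With the inhibitor against stimulation Atf5 and Ddit4 lay at the opposite ends of the set. Per kb of exon, the log2 ratio of Atf5 to Ddit4 was 1.18, 0.97 and 0.79 in inhibitor libraries 1 to 3, -3.90, -3.79 and -3.96 with stimulation alone and -4.92, -4.46 and -4.99 without stimulation. Ddit4 thus exceeded Atf5 in the 6 libraries without inhibitor, and Atf5 exceeded Ddit4 in all 3 with it. The pair was named with earlier results known, so the ratio is a description and was not tested.

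The order of the levels changed with the group, here in mean CPM per kb of exon. With the inhibitor Atf4 led at 170.3, followed by Asns (54.4) and Atf5 (54.3), whose libraries overlapped. Trib3 (29.7), Ddit4 (27.8), Sesn2 (26.0), Ddit3 (18.3) and Chac1 (18.0) followed, each overlapping its neighbour, and Atf3 (9.04) and Cebpb (8.87) were last and overlapped. With stimulation alone Atf4 (234) and Ddit4 (226) led with overlapping libraries, before Asns (123) and Trib3 (44.0), which stood apart. Atf3 (32.8) and Sesn2 (28.5) overlapped, as did Chac1 (17.1), Atf5 (15.3) and Ddit3 (15.05), with Cebpb (8.80) last. In unstimulated cells Atf4 (71.3) and Ddit4 (61.1) again led and overlapped, and Cebpb (19.6) took the third place. Atf3 (11.6), Asns (6.56) and Ddit3 (5.83) overlapped in turn, as did Trib3 (4.02) and Sesn2 (3.68), before Atf5 (2.18) and Chac1 (0.921). Atf5 thus took the third place in inhibitor cells, the eighth in stimulated cells and the ninth in unstimulated cells.

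**Figure D3:**
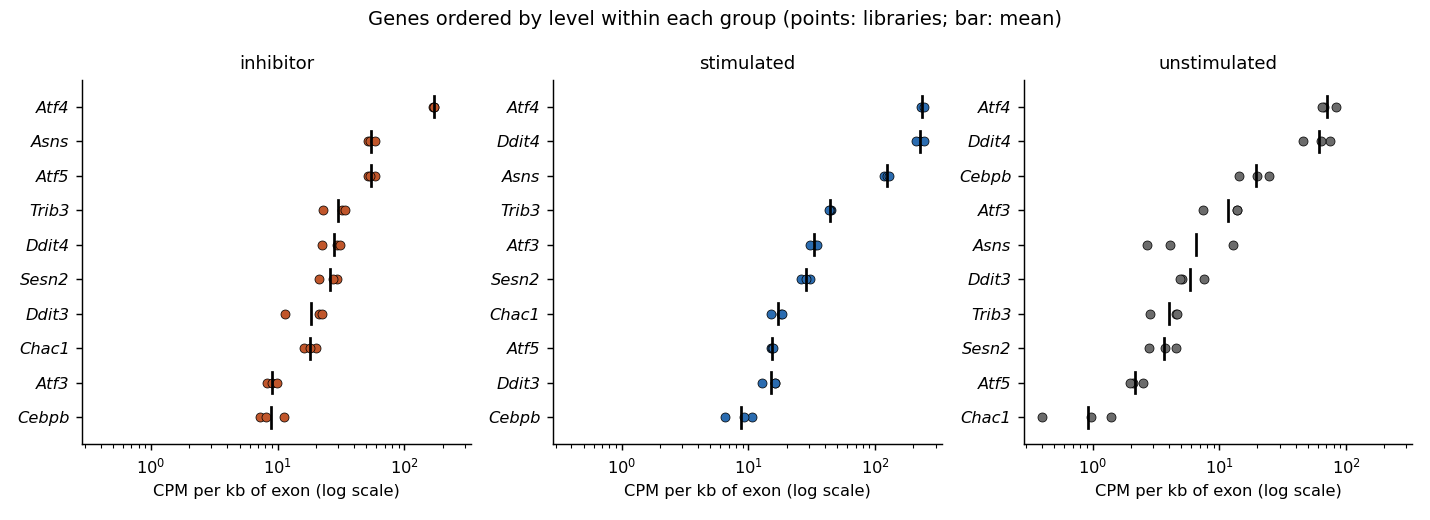
CPM per kb of exonic length (log axis) of the 10 genes in inhibitor, stimulated and unstimulated libraries, ordered by the mean within each group, with points for libraries and bars for means. Atf4 is first in all 3 panels, while Atf5 is in the third place with the inhibitor and in the ninth in unstimulated cells.

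The promoters were searched for TGATGNAA, a composite element at which ATF4 binds with a C/EBP partner, on both strands of the 250 bases before each annotated start (RefSeq, GRCm38.p6). It was found in 3 of the 10 genes, Atf3, Chac1 and Asns, and in 3.45% of the 32851 windows of all genes, or 3.91% of 27025 symbols. The stretches with the element are printed because they belong to the genes of the set that carry these letters next to a RefSeq start. For Atf3 the window searched (191183284 to 191183583) lies inside the GENCODE span given above. The upstream end of that span, at 191218039, was not searched. Each runs from 5′ to 3′ on the strand of its gene, with the element in capitals, which reads in the reverse direction in Atf3 and Chac1.
Atf3, chr1:191183416-191183463, minus strand, element 110 bases before the start: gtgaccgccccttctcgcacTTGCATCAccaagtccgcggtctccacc
Chac1, chr2:119351029-119351076, plus strand, element 193 bases before the start: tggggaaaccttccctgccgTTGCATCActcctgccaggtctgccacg
Asns, chr6:7693210-7693252, minus strand, element 23 bases before the start: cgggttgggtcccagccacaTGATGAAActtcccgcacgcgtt
All 3 of these genes rose with stimulation. With the inhibitor Atf3 and Asns fell and Chac1 was not called, so genes with the element did not share 1 pattern. A match of letters is not a measured binding site, and the other 7 genes lack these letters only in this window.

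Of the genes of the kinases that start the response, Eif2ak2 and Eif2ak4 fell and Eif2ak3 rose with the inhibitor against stimulation. With the inhibitor Eif2ak2, the gene of the RNA sensor PKR, fell to 9.06, 9.67 and 11.5 CPM, against 39.1, 42.3 and 35.3 CPM in stimulated cells (log2 -1.94 ± 0.22, adjusted p = 8.86e-05). In the same comparison Eif2ak4, the gene of the amino acid sensor GCN2, fell slightly (log2 -0.39 ± 0.09), and Eif2ak3, the gene of the unfolded protein sensor PERK, rose (log2 0.56 ± 0.07, adjusted p = 1.41e-04). Impact, whose protein inhibits GCN2, had 61.2, 65.5 and 66.6 CPM with the inhibitor, against 23.5, 22.9 and 25.0 CPM with stimulation (log2 1.44 ± 0.09, adjusted p = 2.03e-06). All 3 inhibitor libraries lay above all stimulated libraries for Impact and below them for Eif2ak2. Of the 9 kinase and cofactor genes 2 rose and 4 fell in this comparison (median -0.23), beside 21.7% higher and 22.8% lower among all genes. With stimulation against unstimulated cells 5 rose and 3 fell (median 0.32), beside 32.0% and 34.0% of all genes. The shares of the list higher with the inhibitor and lower with stimulation are thus near those of all genes. In stimulated against unstimulated cells the rises were led by Eif2ak2 (log2 0.82 ± 0.21), Dele1, which relays mitochondrial stress (0.81 ± 0.16), Eif2ak4 (0.77 ± 0.09) and the GCN2 activator Gcn1 (0.70 ± 0.13). The other kinase genes were lower, with no overlap. Eif2ak1 had 46.9, 41.3 and 42.8 CPM with stimulation, against 60.0, 82.6 and 58.8 CPM in unstimulated cells. Eif2ak3 had 54.6, 51.3 and 52.6 CPM with stimulation, against 68.6, 68.7 and 67.1 CPM in unstimulated cells.

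Ppp1r15a is the gene of GADD34, the inducible subunit that directs a phosphatase to eIF2 alpha, and itself a known ATF4 target. It fell with stimulation, where 9 of the 10 genes rose. With the inhibitor against stimulation it rose, as Atf5 did, while 5 of the 10 fell and 4 were not called. It had 48.2, 51.7 and 42.8 CPM with the inhibitor, 22.6, 21.2 and 20.4 CPM with stimulation and 221, 148 and 146 CPM in unstimulated cells. The groups did not overlap, and the unstimulated level was the highest. The change was -3.00 ± 0.16 (log2) with stimulation against unstimulated cells (adjusted p = 2.34e-07) and 1.15 ± 0.16 with the inhibitor against stimulation (adjusted p = 2.54e-04). The subunits of eIF2 rose with stimulation, Eif2s2 by 2.04 ± 0.14, Eif2s1 by 1.77 ± 0.09 and Eif2s3x by 1.66 ± 0.09 (log2). Of 14 genes of the phosphatase, eIF2 and its exchange factor eIF2B, 11 rose and 1 fell with stimulation (median 1.09), beside 32.0% higher and 34.0% lower among all genes. Of the 14, 1 rose and 10 fell with the inhibitor against stimulation (median -0.43), beside 21.7% and 22.8%. Each count of 1 was 2 under upper-quartile scaling. Those that fell with the inhibitor included the catalytic subunits Ppp1cc (-0.80 ± 0.08) and Ppp1ca (-0.79 ± 0.11), and Eif2b3 (-0.69 ± 0.11). Of 16 genes listed as immediate early or tissue handling genes, 12 also fell with stimulation, beside 34.0% of all genes. Fos fell to 10.4 ± 0.120 CPM in stimulated cells, against 733 ± 298 CPM in unstimulated cells. Their part in the levels of Ppp1r15a, Atf3 and Cebpb in unstimulated cells was not tested.

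**Figure D4:**
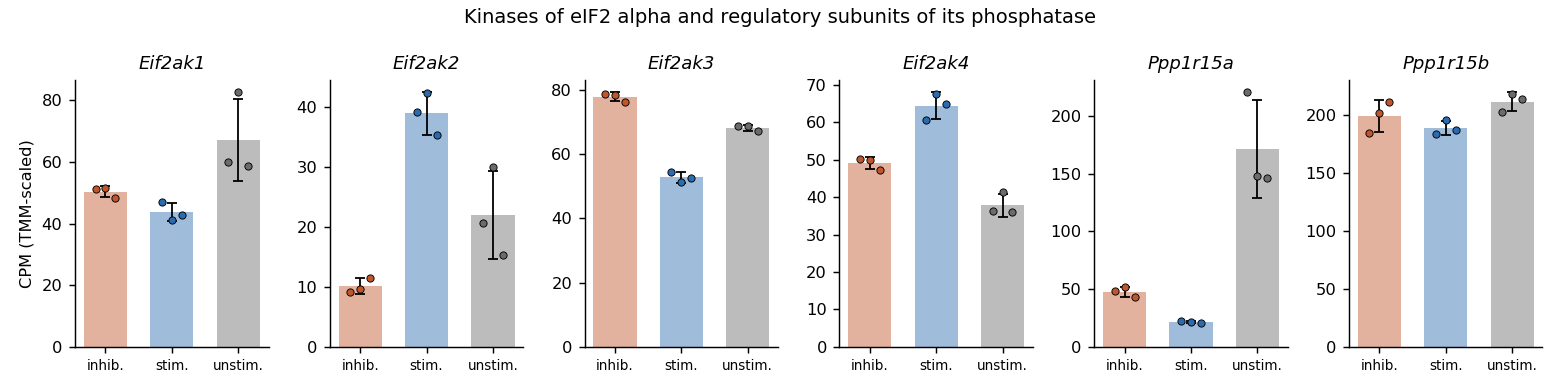
CPM (TMM-scaled) in each inhibitor, stimulated and unstimulated library of the 4 eIF2 alpha kinase genes Eif2ak1, Eif2ak2, Eif2ak3 and Eif2ak4 and of Ppp1r15a and Ppp1r15b, regulatory subunits of the phosphatase, with bars for means and error bars for the SD (n = 3). Eif2ak2 is lowest with the inhibitor, and Ppp1r15a is highest in unstimulated cells.

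The other known ATF4 targets were read as 4 lists, beside 32.0% higher and 34.0% lower among all genes in stimulated against unstimulated cells and 21.7% higher and 22.8% lower in inhibitor against stimulated cells. Genes of amino acid synthesis rose with stimulation and mostly fell with the inhibitor. With stimulation all 12 rose (median log2 fold change 4.09), led by the mitochondrial folate enzyme gene Aldh1l2, Cth of cysteine synthesis, Gpt2 of alanine synthesis and Pycr1 of proline synthesis. Gpt2 had 81.1 ± 9.10 CPM in stimulated and 1.15 ± 0.199 CPM in unstimulated cells, and Pycr1 had 31.1 ± 2.96 CPM in stimulated and 1.20 ± 0.420 CPM in unstimulated cells. Aldh1l2 reached 44.3 ± 4.35 CPM in stimulated cells and had 0, 6 and 0 counts in the unstimulated libraries. With the inhibitor 10 of the 12 fell against stimulation (median -1.05). Cth had 24.3 ± 3.04 CPM with the inhibitor, against 72.4 ± 4.48 CPM with stimulation, and the serine synthesis genes Psph, Psat1 and Phgdh changed by -1.52 ± 0.10, -1.20 ± 0.11 and -1.12 ± 0.08 (log2). In inhibitor against unstimulated cells all 12 were still higher, beside 26.3% of all genes. Under upper-quartile scaling, without inhibitor library 1 or without unstimulated library 2 it was 11 of the 12.

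Genes that charge tRNA gave the same direction with smaller medians. All 13 rose with stimulation (median 2.21), with Aars, Gars, Yars and Cars, the synthetase genes for alanine, glycine, tyrosine and cysteine, at 2.85 ± 0.14, 2.79 ± 0.10, 2.51 ± 0.13 and 2.41 ± 0.13 (log2). With the inhibitor 10 fell and none rose (median -0.37), led by Lars (-0.72 ± 0.13), Gars (-0.70 ± 0.10), Nars (-0.68 ± 0.12) and Wars (-0.67 ± 0.08). Under upper-quartile scaling 6 of the 13 fell and the median was -0.24. In inhibitor against unstimulated cells all 13 were higher, beside 26.3% of all genes.

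Amino acid transporters did not follow one direction with the inhibitor. With stimulation 7 of 9 rose (median 1.91), among them Slc7a5, the large neutral amino acid carrier, at 730.1 ± 49.8 CPM in stimulated and 46.1 ± 12.8 CPM in unstimulated cells. Slc7a3 (arginine and lysine), Slc1a4 (alanine and serine) and Slc6a9 (glycine) rose by 7.12 ± 0.26, 4.82 ± 0.16 and 2.95 ± 0.67 (log2). With the inhibitor Slc7a5 and Slc7a3 fell against stimulation by 1.04 ± 0.16 and 1.08 ± 0.19 on the log2 scale, and Slc38a2, a glutamine carrier, rose to 393 ± 17.6 CPM, against 227 ± 6.25 CPM with stimulation. The other 6 were not called (median of the 9, 0.12). In inhibitor against unstimulated cells 8 of the 9 were higher, beside 26.3% of all genes.

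Of 11 tested signalling and stress targets 5 rose and 4 fell with stimulation (median 1.36), and 2 rose and 6 fell with the inhibitor against stimulation (median -1.14). Stc2, a secreted glycoprotein, had 13.0 ± 0.704 CPM with the inhibitor, 56.5 ± 4.96 CPM with stimulation and 2.11 ± 0.814 CPM in unstimulated cells. Eif4ebp1, a repressor of translation, had 65.3 ± 13.1 CPM with the inhibitor, 152 ± 6.32 CPM with stimulation and 11.7 ± 4.61 CPM in unstimulated cells. Vldlr, a lipoprotein receptor gene that is also a hypoxia target, had 2.94 ± 0.481 CPM with the inhibitor, 38.3 ± 7.72 CPM with stimulation and 0.194 ± 0.178 CPM in unstimulated cells. All 3 were highest with stimulation alone, unlike the 4 targets of this list that fell with stimulation.

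**Figure D5:**
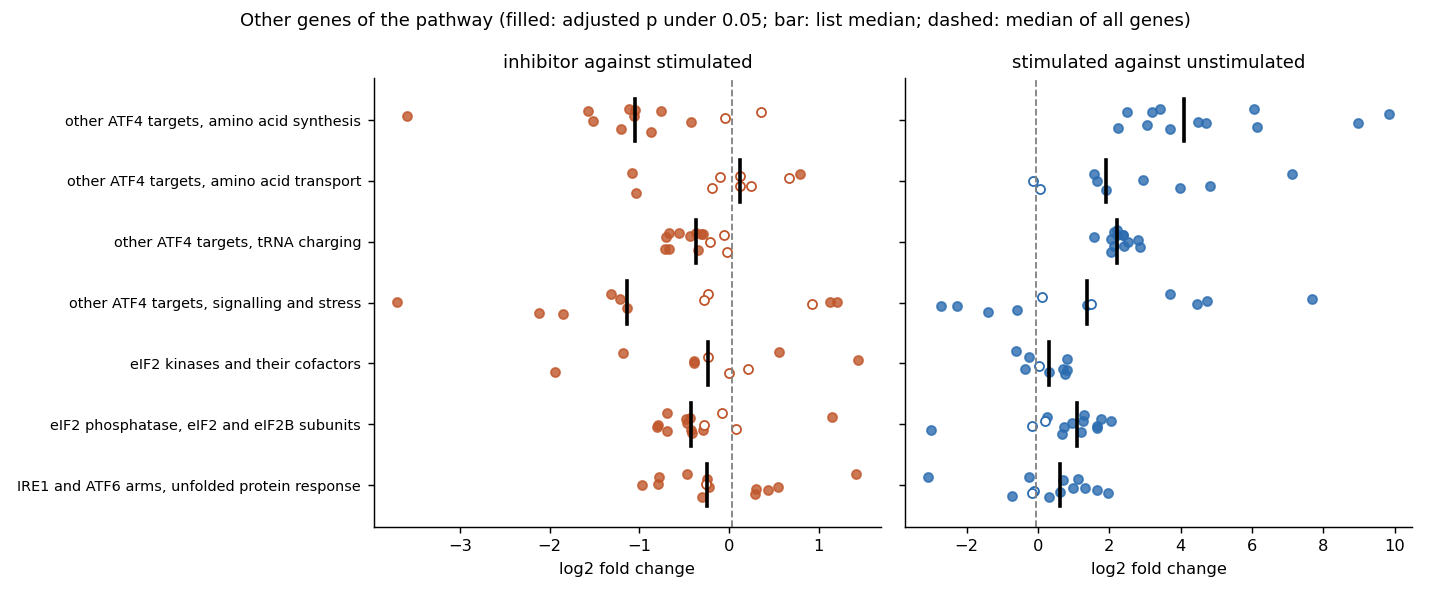
Log2 fold change of each tested gene of 7 lists in inhibitor against stimulated libraries (left) and stimulated against unstimulated libraries (right), with filled points for an adjusted p under 0.05, bars for list medians and a dashed line for the median of all genes. Amino acid synthesis and tRNA charging lie right of the line with stimulation and mostly left of it with the inhibitor.

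Other inducers known for Ddit4 were looked at through 2 lists. Of 11 hypoxia response genes 11 rose in stimulated against unstimulated cells (median 2.71), beside 32.0% of all genes, and 10 fell with the inhibitor against stimulation (median -2.10), beside 22.8%. Egln3, a prolyl hydroxylase gene, had 3.60 ± 0.321 CPM with the inhibitor, 278 ± 16.6 CPM with stimulation and 3.24 ± 0.431 CPM in unstimulated cells, and Bnip3, of mitochondrial removal, had 1.62 ± 0.571 CPM with the inhibitor, 124 ± 29.6 CPM with stimulation and 3.73 ± 0.210 CPM in unstimulated cells. The glucose carrier gene Slc2a1 fell with the inhibitor by 2.18 ± 0.10 (log2). Glucocorticoid response genes went the other way with stimulation, with 1 of 9 higher and 7 lower (median -1.87), beside 32.0% and 34.0% of all genes, among them Tsc22d3, the gene of GILZ, at 24.9 ± 1.38 CPM in stimulated and 450.3 ± 71.9 CPM in unstimulated cells. Of the 9, 3 rose and 5 fell with the inhibitor against stimulation, beside 21.7% and 22.8%, with Fkbp5 at -1.13 ± 0.14 and the receptor gene Nr3c1 at 0.79 ± 0.09 (log2). In inhibitor against unstimulated cells, where Ddit4 was lower, 5 of the 11 hypoxia genes were higher and 2 lower (median 0.50). Of the 9 glucocorticoid genes 0 were higher and 8 lower (median -3.29) in that comparison. Among all genes 26.3% were higher and 26.1% lower. The part of either response in the level of Ddit4 was not tested.

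Relatives of the 10 genes were read as 2 lists, beside 32.0% higher and 34.0% lower among all genes with stimulation and 21.7% higher and 22.8% lower with the inhibitor against stimulation. Of 16 ATF and C/EBP relatives 7 rose and 7 fell with stimulation, and 6 rose and 5 fell with the inhibitor against stimulation. Nfil3, a basic leucine zipper repressor, had 10.2 ± 1.43 CPM with the inhibitor, 181 ± 9.52 CPM with stimulation and 12.3 ± 1.85 CPM in unstimulated cells, and Crem, a relative of CREB, had 24.3 ± 4.31 CPM with the inhibitor, 151 ± 10.8 CPM with stimulation and 16.7 ± 2.19 CPM in unstimulated cells. Both were thus high with stimulation alone. Creb3 was highest with the inhibitor, at 73.3 ± 9.67 CPM against 16.5 ± 0.756 CPM with stimulation. Of 15 tested relatives of Sestrin, DDIT4 and TRIB with the TSC and GATOR complexes, 4 rose and 5 fell with stimulation (2 and 6 under upper-quartile scaling), and 4 rose and 3 fell with the inhibitor against stimulation, shares near those of all genes. Trib2 and Trib1 moved against Trib3: Trib2 had 53.8 ± 4.11 CPM with the inhibitor, 16.2 ± 1.98 CPM with stimulation and 177 ± 30.6 CPM in unstimulated cells, and Trib1 had 35.4 ± 2.47 CPM with the inhibitor, 14.95 ± 1.86 CPM with stimulation and 64.0 ± 16.1 CPM in unstimulated cells. Castor1, the gene of an arginine sensor upstream of mTORC1, had 4.18 ± 0.745 CPM with the inhibitor, 36.1 ± 4.51 CPM with stimulation and 5.60 ± 1.34 CPM in unstimulated cells, and Tsc1 rose with the inhibitor against stimulation by 1.34 ± 0.07 (log2).

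The genes whose pattern was most like that of a member were found among 8919 genes, by the root mean square difference of log2 CPM over the 9 libraries after each gene was centred on its mean. Nearest to Atf4 were Insig1 (0.0747), Cct2 (0.0852), Cct6a (0.0861) and Rwdd1 (0.0928). Cct2 and Cct6a encode subunits of the chaperonin that folds actin and tubulin, and Cct2 had 451 ± 26.7 CPM with the inhibitor, 602 ± 23.0 CPM with stimulation and 178 ± 5.70 CPM in unstimulated cells. Nearest to Atf5 were Rgs16 (0.107), Nr4a3 (0.269), Sema7a (0.415) and Phldb1 (0.438). Rgs16, a brake on G protein signalling, had 212 ± 10.8 CPM with the inhibitor, 61.4 ± 5.61 CPM with stimulation and 8.64 ± 0.868 CPM in unstimulated cells, and the nuclear receptor gene Nr4a3 had 727 ± 41.1 CPM with the inhibitor, 290.0 ± 46.0 CPM with stimulation and 37.3 ± 9.35 CPM in unstimulated cells. Nearest to Ddit4 were Abcb9 (0.222), Slc2a3 (0.268), Fosl2 (0.321) and Casp6 (0.322). Slc2a3, a glucose carrier gene, had 43.6 ± 3.996 CPM with the inhibitor, 357 ± 69.9 CPM with stimulation and 82.2 ± 3.04 CPM in unstimulated cells. These likenesses describe the same 9 libraries and were not tested.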

How the data were processed

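Total RNA was sequenced after ribosomal RNA depletion with a strand-keeping kit, per the labels' protocols. The authors deposited whole-number read counts per gene without normalization. Per the submitters' processing notes these came from STAR 2.7.1a and featureCounts on mm10. The sources used here do not give the strand setting, the annotation or how mates were counted. Of the counts from 1 to 10, 70.6% to 78.5% were even in each library, so counting intervals would be too narrow. Libraries of 1 group differed by more than sampling noise (chi-square over its degrees of freedom 32.7 to 132), and each counted as 1 sample. The labels call the replicates biological but do not say whether they came from separate animals. The p-values thus measure only the spread of these samples, and how much of it lies between animals is not known.

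Names, positions and exonic lengths came from GENCODE M21, which holds 49412 of the identifiers. With edgeR 4.0.16 (R 4.3.3), filterByExpr kept 18374 genes, and 1 quasi-likelihood fit with TMM factors and the group as term took all 9 libraries (6 residual degrees of freedom). The script was run on simulated counts with far fewer changed genes than were called here. That run therefore does not measure its error rates on these data. Tests were two-sided, with Benjamini-Hochberg adjustment over all genes and a threshold of 0.05. A gene "rose", "fell" or was "called" where it passed. The ± after a log2 fold change is an approximate SE, its size over the root of the F statistic, and the ± after a CPM value is the SD (n = 3). A total of 3 counts over a group equals 0.0228 CPM in the inhibitor, 0.0205 CPM in the stimulated and 0.0226 CPM in the unstimulated group, which covers counting error only.

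The 10 genes, the 12 other pathway lists, the 5 marker lists and the tests were chosen with earlier results of these data known. From each list up to 4 called genes per comparison could be named, those with the largest change and at least 10 CPM in a group, and the 4 genes nearest in pattern to each of Atf4, Atf5 and Ddit4. Mki67, Ighm, Ctss and genes that overlap a member were named outside that rule, after their values were seen. So were Eif2ak1 and Eif2ak3 in stimulated against unstimulated cells. The alternatives were RLE and upper-quartile scaling, no filter and a filter at 10 CPM, DESeq2 1.42.0, limma 3.58.1 (voom), only the 2 groups compared, a replicate block, and leaving out each library.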

Additional observations from a re-analysis of the deposited data

How the results depend on the processing

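Of the 30 fold changes of the 10 genes, 27 stayed on the same side of the threshold under all 17 alternatives, 3 changed sides in some, and none that was called reversed. The sign was kept by 28 of them, while 2 differences near 0 that were not called changed sign, those of Chac1 (-0.02 to 0.20) and Cebpb (-0.20 to 0.17) with the inhibitor against stimulation. With the inhibitor against stimulation 5 genes fell in the reported test and 3 under upper-quartile scaling, since Trib3 (-0.44, adjusted p = 0.0788) and Asns (-1.05, adjusted p = 0.0608) lost their calls, and 3 to 5 when single libraries were left out. The adjusted p ranged from 4.11e-04 to 0.105 for Trib3 and from 1.69e-09 to 0.117 for Asns. Atf3 with the inhibitor against unstimulated cells was called with no filter (-0.39, adjusted p = 0.0469) and without unstimulated library 3. Upper-quartile scaling moved the median of all genes to 0.16, against 0.03, for inhibitor against stimulated and to -0.27, against -0.05, for stimulated against unstimulated cells. Among genes of at least 10 CPM, where fewer genes are tested, 3463 rose and 3488 fell with stimulation, against 5880 and 6246, and 2947 rose and 2920 fell in inhibitor against unstimulated cells, against 4826 and 4800. The list counts of the other pathway genes, rerun with other scalings and without inhibitor library 1 or unstimulated library 2 (chosen after seeing the data), moved by over 1.5 times for tRNA charging (6 lower of 13 under upper-quartile scaling) and the IRE1 and ATF6 arms (4 lower, against 7, with the inhibitor against stimulation, under that scaling and without inhibitor library 1), beside the Sestrin list (2 higher with stimulation, against 4, and 5 lower in inhibitor against unstimulated cells, against 3, under that scaling) and the transporter list (3 higher with the inhibitor against stimulation under that scaling and 2 without unstimulated library 2, against 1). In the list of the phosphatase, eIF2 and eIF2B, counts of 1 became 2, for those lower with stimulation and those lower in inhibitor against unstimulated cells under both other scalings, and for those higher with the inhibitor against stimulation under upper-quartile scaling.

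With the replicate number as a block 3 genes fell with the inhibitor against stimulation, Trib3 (-0.57, adjusted p = 0.0523) and Asns (-1.17, adjusted p = 0.0516) losing their calls, and 3642 genes rose and 3940 fell. Deviations of same-numbered stimulated and inhibitor libraries had weak positive correlations (0.078 to 0.144). Pairs with an unstimulated library had correlations of -0.194 to 0.005. The labels do not say what the numbers mark, so they are not taken to pair the samples.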

Other observations

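The unfolded protein response has 2 further arms, run by IRE1 and ATF6, whose genes were listed beside those of ATF4. Of 13 such genes 5 rose and 7 fell with the inhibitor against stimulation (median -0.25), beside 21.7% higher and 22.8% lower among all genes. With stimulation against unstimulated cells 8 rose and 3 fell (median 0.61), beside 32.0% higher and 34.0% lower among all genes. Dnajb9, a chaperone gene that IRE1 controls through XBP1, had 26.9 ± 2.21 CPM with the inhibitor, 10.1 ± 2.52 CPM with stimulation and 85.7 ± 12.7 CPM in unstimulated cells. Hyou1, Manf and Sdf2l1, genes of other proteins of the endoplasmic reticulum, changed the opposite way with stimulation, by 1.30 ± 0.08, 1.64 ± 0.11 and 1.96 ± 0.23 (log2). With the inhibitor against stimulation Manf, Sdf2l1 and Ern1, the gene of IRE1 itself, fell by 0.79 ± 0.11, 0.78 ± 0.22 and 0.97 ± 0.15 on the log2 scale, and Dnajb9 rose by 1.41 ± 0.18.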
